A study of Homo sapiens with 2 samples.

Results

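The transcripts described here are those of the machinery that makes ribosomes, together with the subunits of RNA polymerase I. They were chosen by gene symbol alone. A probe set was taken where its single annotated gene was a POLR1, NOP, RRP, UTP or NOL gene followed by a number or letter, a listed DDX helicase, or another gene named in the rule such as NCL, NPM1, FBL or TCOF1. This gave 154 of the 54675 probe sets on the array and 64 of the 19775 genes that have a probe set of their own. The rule reads symbols and not signals, although it was written with results of these arrays known. Of the 24 symbols spelled out in full, DKC1, BOP1, GNL3, DDX18 and DDX47 had no single-gene probe set and were not analysed here.

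H322c cells, an established NSCLC (non-small cell lung cancer) line, were cultured for 4 days with 1 µM gefitinib, a small molecule inhibitor of the EGFR kinase, or for 4 days with 0.1% DMSO, the solvent of the drug. Both cultures were plated a day before the additions and grown in the same serum-containing medium. Total RNA of each culture was hybridised to 1 Affymetrix U133 Plus 2.0 array. With 1 array per condition there is no replicate, no test was possible, and every difference below describes these 2 arrays.

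Ribosome production starts in the nucleolus, where RNA polymerase I transcribes the long precursor of the ribosomal RNAs. Small nucleolar particles of the box C/D and box H/ACA type guide the modification of that precursor, and large assemblies of UTP, NOP, RRP and other proteins cut it, fold it and join it to ribosomal proteins to form the small and the large ribosomal subunit. The demand is tied to growth, and MYC, which dimerises with MAX on the E-box sequence CACGTG, is a known activator of many of these genes.

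A probe set is a group of short oligonucleotides for 1 transcript region, and its MAS5 signal is an intensity in arbitrary linear units. Signals under 100 were set to 100 on both arrays, and a probe set counted as measured where it reached 100 on at least 1 array. Of the 154 probe sets, 105 were measured, 95 of them on both arrays. They covered 61 of the 64 genes. NOL4, NOP53 and POLR1HASP were under 100 on both arrays. A gene takes its value from its brightest measured probe set, and the log2 ratio is that of gefitinib over DMSO. In place of replicate error stands the spread among probe sets that read 1 gene, as an SD in log2 ratio, which was 0.54 over 4610 genes and 0.42 over the 26 member genes with more than 1 probe set at or above 100 on both arrays. It does not include the spread between cultures.

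Each array had a 2% trimmed mean of 500. The share of probe sets under 100 was 60.4% on the gefitinib array and 61.6% on the DMSO array, and over all 11223 measured genes the median log2 ratio was 0.12. The ratio of the 3′ to the 5′ control probe set, a sign of RNA quality, was 1.01 for GAPDH and 1.36 for ACTB on the gefitinib array, against 0.95 and 1.19 on the DMSO array. All 6 epithelial markers were measured, with signals of 8132.4 to 30962.3 on the gefitinib array and 7141.3 to 38923.3 on the DMSO array. None of 5 leukocyte markers reached 100. Of 7 fibroblast and endothelial markers, VWF had 496.0 with gefitinib and 30.0 with DMSO, COL1A1 had 950.2 with gefitinib and 420.8 with DMSO, PECAM1 had 78.0 with gefitinib and 128.4 with DMSO, and COL1A2, COL3A1, DCN and CDH5 were under 100 on both arrays. Their part in the ratios of the ribosome genes was not tested.

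Transcripts for ribosome production were on balance slightly lower with gefitinib on the deposited scale. The median log2 ratio of the 61 measured members was −0.27 (SD 0.60 between genes), with quartiles of −0.66 and 0.14, and 39 of the 61 (63.9%) lay below 0. Over all measured genes 43.0% lay below 0. At least 2-fold lower were 6 members (9.84%), POLR1H, NOP10, RRP12, UTP6, NOP16 and WDR12, beside 6.2% of all measured genes. At least 2-fold higher were 2 members (3.28%), NOL8 and RRP1, beside 13.3% of all measured genes. The other 53 members lay within 2-fold. The RNA came from whole cultures, so fewer cells making a transcript and less of it per cell cannot be told apart. Both arrays were also brought to a common mean, so a shift shared by most transcripts is removed or distorted. The size and the sign of the median depended on how the arrays were scaled. Centred on the 100 normalization-control probe sets the members' median was −0.13, scaled to GAPDH it was 0.084, and scaled to the hybridization spike-ins it was −0.46. The median of all measured genes moved with them, to 0.25, 0.45 and −0.07. Those scalings multiply an array by a single factor, so apart from floor effects they cannot change the distance between the medians. That distance was −0.38 as deposited, −0.49 after quantile normalization and −0.47 after lowess, which can change it. The GAPDH factor came from a single probe set. It had the lowest log2 ratio (−0.35) of the 6 GAPDH probe sets, which ran up to −0.18, and the others were not tried. A single factor turns the sign of the members' median (−0.267) only if the GAPDH ratio lies below that median. The control probe sets of GAPDH, at −0.177, −0.228 and −0.266, do not. The normalization controls include the brightest NPM1 probe set and cytoplasmic ribosomal protein probe sets, so they overlap genes read here.

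**Figure D1:**
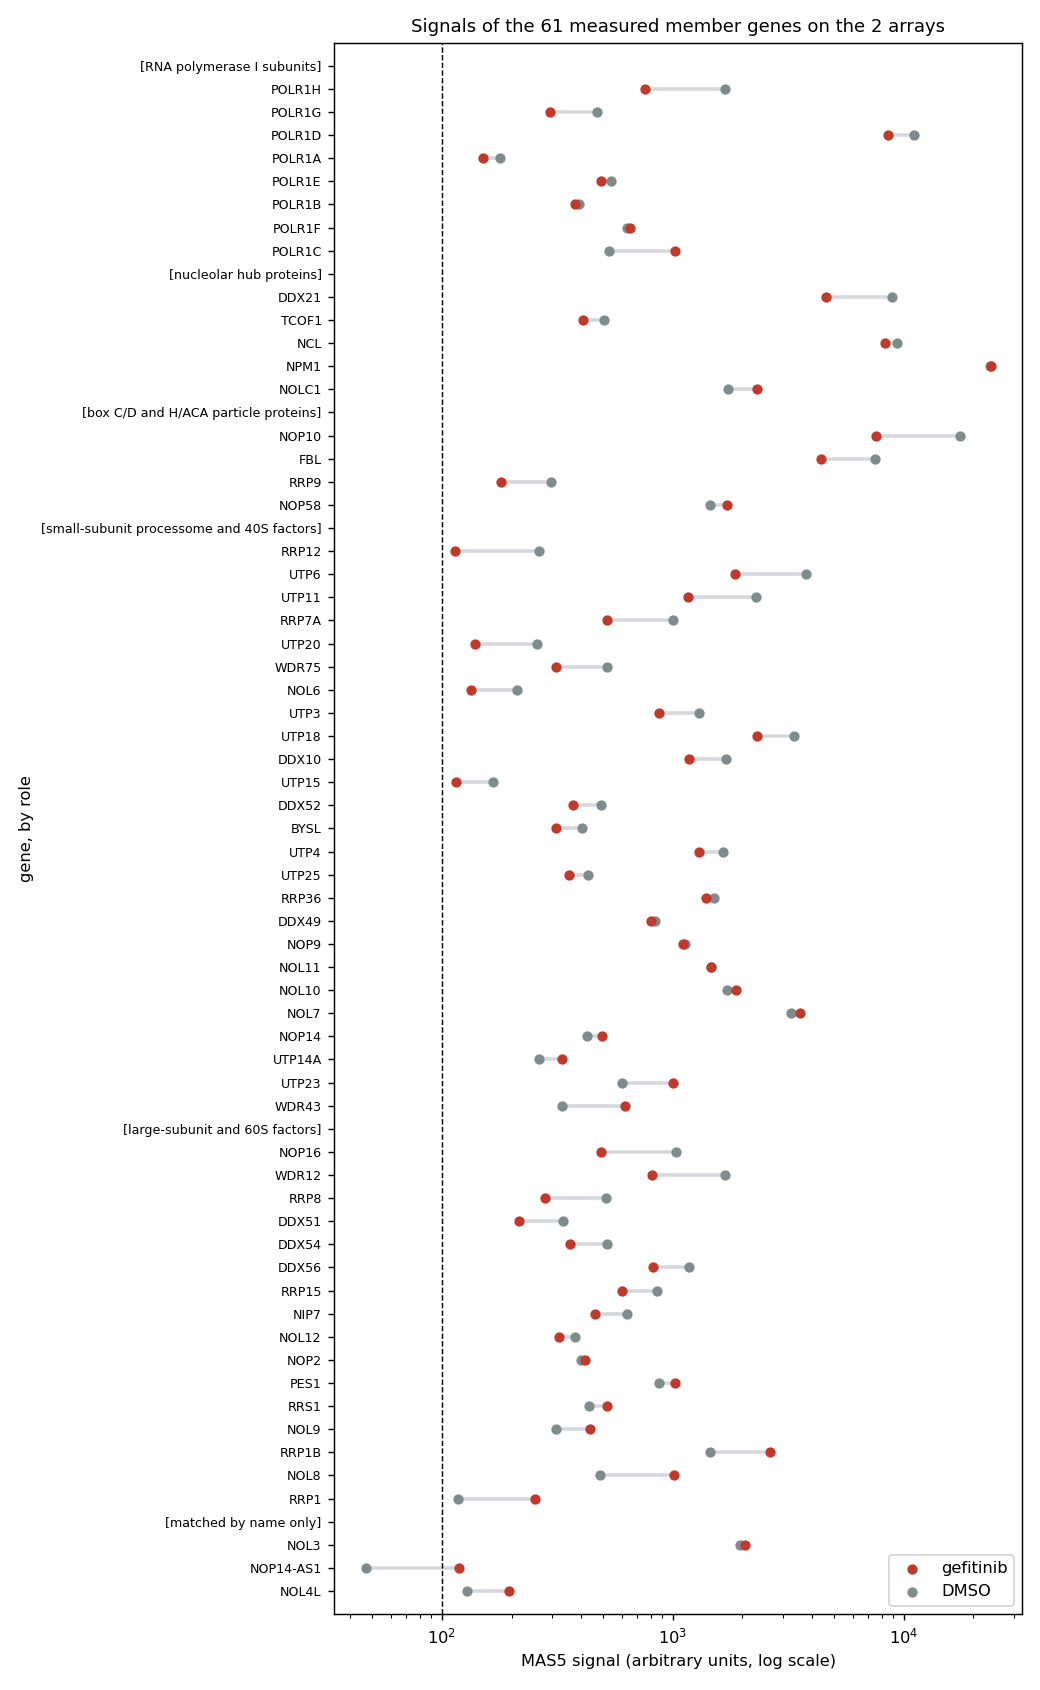
MAS5 signal of the 61 measured member genes on the gefitinib array (red) and the DMSO array (grey), on a log axis in arbitrary units, grouped by role and ordered by log2 ratio within a role. Each point is 1 array, the dashed line is the floor of 100, and NOP14-AS1 is drawn at its measured DMSO signal below the floor. In 39 of 61 genes the red point is to the left. For NPM1 and NOL11 the points coincide.

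All 8 POLR1 subunit genes of RNA polymerase I were measured, and their ratios ran on both sides of 0. The enzyme also holds subunits with POLR2 symbols that it shares with the other polymerases, which the rule does not reach. Of the 8 POLR1 genes, 6 lay below 0 (75%, beside 43.0% of all measured genes), and their median was −0.20. At least 2-fold lower was 1 (12.5%, beside 6.2%), and none was at least 2-fold higher (beside 13.3%). POLR1H, the small subunit that takes part in RNA cleavage, had 756.1 with gefitinib and 1684.5 with DMSO at its brightest probe set, a 2.23-fold lower signal (log2 ratio −1.16). Its other measured probe set gave 465.1 with gefitinib and 1109.7 with DMSO, which is 2.39-fold lower. These are the only measured probe sets of POLR1H, and both were past 2-fold in the same direction, although their suffixes (_x_at and _s_at) mark probes that can match further transcripts. POLR1G, which pairs with POLR1E in the enzyme, had 295.0 with gefitinib and 470.6 with DMSO, 1.60-fold lower. POLR1C, a subunit shared with RNA polymerase III, was on the opposite side, at 1020.5 with gefitinib and 526.0 with DMSO, 1.94-fold higher, and 559.9 with gefitinib and 362.1 with DMSO at its other probe set.

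The catalytic core differed little at the brightest probe sets. POLR1A, the largest subunit, had 150.2 with gefitinib and 178.9 with DMSO, close to the floor on both arrays. Its other probe sets gave log2 ratios of −0.38 and, as a bound, 0.19, so its direction depends on the probe set. POLR1B, which completes the active centre, had 378.4 with gefitinib and 390.9 with DMSO, although its dimmer probe sets gave log2 ratios of 0.54 and 0.86. POLR1D, the partner of POLR1C, had 8570.4 with gefitinib and 11064.1 with DMSO (log2 ratio −0.37), while 2 further probe sets gave 0.24 and 0.28. The direction for POLR1D therefore depends on the probe set. POLR1E had 487.0 with gefitinib and 539.2 with DMSO, and a log2 ratio of 0.07, as a bound, at a dimmer probe set. POLR1F, a stalk subunit, had 651.7 with gefitinib and 634.7 with DMSO. Those differences are smaller than the 0.54 spread between probe sets of a gene.

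The factors that bring the polymerase to the ribosomal DNA lie outside the symbol rule and were read from a fixed list of 8. All 8 were measured, with a median of 0.12. At least 2-fold higher was 1 (12.5%, beside 13.3% of all measured genes), and at least 2-fold lower was 1 (12.5%, beside 6.2%). UBTF, the architectural factor that binds ribosomal DNA along its length, had 684.3 with gefitinib and 315.1 with DMSO, 2.17-fold higher, and its 4 measured probe sets all lay above 0, at 0.91 to 1.26. TAF1A, a subunit of the promoter-selectivity complex, had 141.6 with gefitinib and 382.4 with DMSO, 2.70-fold lower. RRN3, which links the polymerase to that complex, had 953.5 with gefitinib and 710.2 with DMSO (log2 ratio 0.43). UBTF and TAF1A thus stood more than 2 log2 units apart although they act at the same promoter. TAF1A was read by a single measured probe set, with its gefitinib signal near the floor.

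The proteins of the small nucleolar particles had the lowest median of the roles, −0.75 over 4 genes, of which 3 lay below 0. NOP10, a core protein of the box H/ACA particles that make pseudouridine and of telomerase, had 7570.2 with gefitinib and 17521.3 with DMSO, a 2.31-fold lower signal and the lowest log2 ratio of all members (−1.21). FBL, the methyltransferase of the box C/D particles, had 4384.6 with gefitinib and 7525.9 with DMSO, 1.72-fold lower. RRP9, a protein particular to the U3 particle that is needed for the first cuts of the precursor, had 179.4 with gefitinib and 295.6 with DMSO, 1.65-fold lower. NOP58, another box C/D core protein, was on the other side of 0, at 1705.6 with gefitinib and 1451.9 with DMSO. All 4 genes had a single measured probe set, so no other reading stands beside these values. Among 10 further particle proteins and assembly factors outside the rule, 8 lay below 0 and the median was −0.45. NAF1, an assembly factor of H/ACA particles, was the exception past 2-fold, at 591.2 with gefitinib and 203.9 with DMSO.

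Of the nucleolar proteins that serve several steps, DDX21 had the lowest ratio. DDX21, an RNA helicase that works in both ribosomal RNA transcription and processing, had 4577.6 with gefitinib and 8864.8 with DMSO, 1.94-fold lower, and its other probe set gave 3505.6 with gefitinib and 6834.7 with DMSO, 1.95-fold lower. The 2 readings differ by 0.01 on the log2 scale. NCL, nucleolin, had 8293.3 with gefitinib and 9364.4 with DMSO. TCOF1, treacle, which assists polymerase I transcription, had 406.9 with gefitinib and 502.4 with DMSO and, at a dimmer probe set, 262.4 with gefitinib and 403.8 with DMSO.

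For NPM1 and NOLC1 the probe sets did not give 1 answer. NPM1, nucleophosmin, had 23853.3 with gefitinib and 23547.4 with DMSO at its brightest probe set. Another had 13628.4 with gefitinib and 20273.6 with DMSO, and a further one had 10332.1 with gefitinib and 20976.5 with DMSO, 2.03-fold lower. NPM1 is known for many processed pseudogenes, and all 3 probe sets carry such suffixes, so its level is uncertain here. NOLC1, a scaffold that binds small nucleolar particles, had 2322.1 with gefitinib and 1724.7 with DMSO at its brightest probe set (log2 ratio 0.43), against −0.57 and −0.34 at 2 dimmer ones. The plot of probe sets by gene shows this spread for each member with more than 1 measured probe set.

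**Figure D2:**
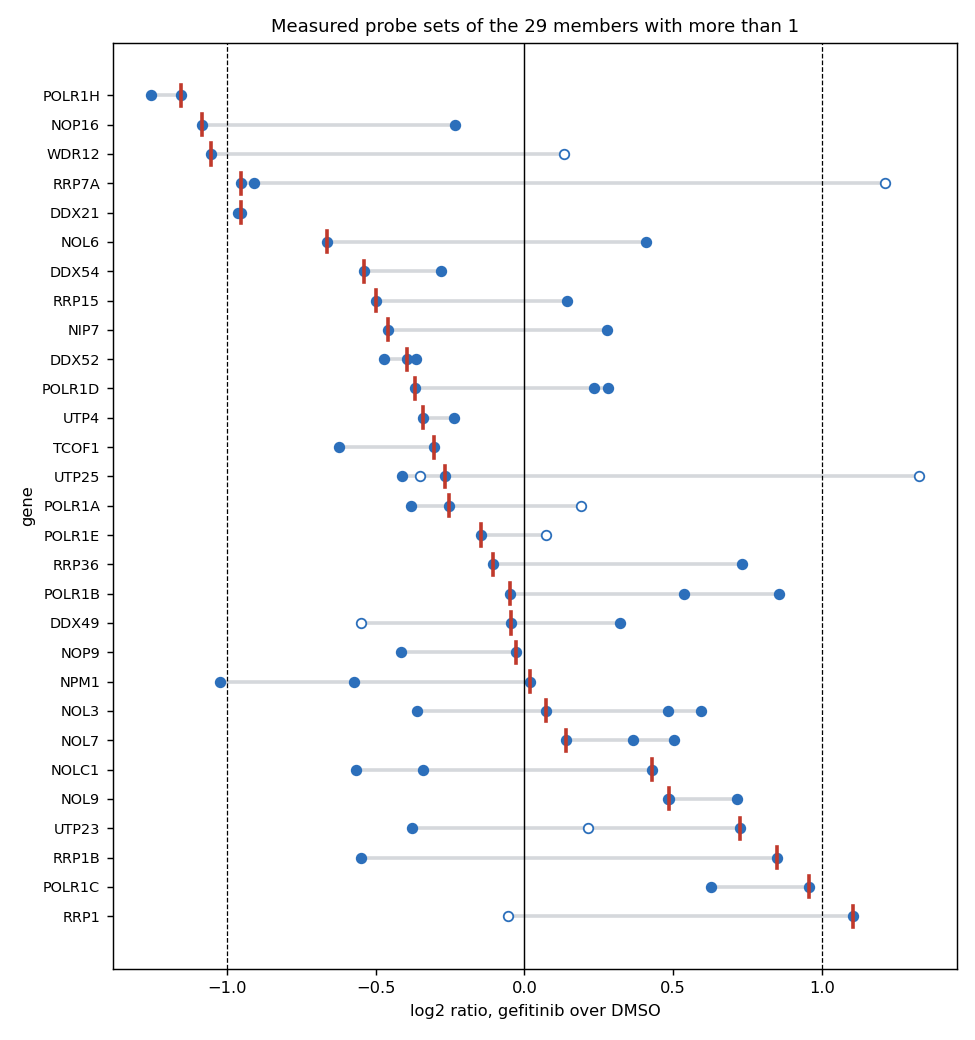
Log2 ratio of gefitinib over DMSO for every measured probe set of the 29 member genes with more than 1, a row per gene. Red bars mark the brightest probe set, open circles are ratios in which 1 signal was under the floor of 100 and so are bounds, and dashed lines mark 2-fold. In 11 genes all points lie on one side of 0, and in 18 they lie on both sides.

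The small-subunit processome is the assembly that forms on the 5′ part of the precursor, and it made up the largest role, with 25 genes. All 25 were measured. Of these, 18 (72.0%) lay below 0, beside 43.0% of all measured genes, and the median was −0.37. At least 2-fold lower were 2 (8.0%), close to the 6.2% of all measured genes, and none was at least 2-fold higher, beside 13.3%. RRP12, an export and maturation factor of the small subunit, had 114.2 with gefitinib and 262.5 with DMSO, 2.30-fold lower, with the gefitinib signal just above the floor. UTP6 had 1859.8 with gefitinib and 3780.7 with DMSO, 2.03-fold lower. UTP11 came close, at 1156.1 with gefitinib and 2285.7 with DMSO, 1.98-fold lower.

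The processome members can be read by the subcomplexes in which they are known to enter. UTP-A is the first to bind the precursor and is linked to its transcription. Of its members here, WDR75 had 310.6 with gefitinib and 518.7 with DMSO, UTP15 had 114.9 with gefitinib and 165.5 with DMSO, and UTP4 had 1300.0 with gefitinib and 1647.2 with DMSO. NOL11 had 1468.1 with gefitinib and 1462.1 with DMSO, and WDR43 had 620.9 with gefitinib and 331.6 with DMSO, which is 1.87-fold higher. These UTP-A members thus ran on both sides of 0, from −0.74 for WDR75 to 0.90 for WDR43. Each was read by a single measured probe set except UTP4, whose other probe set gave −0.24. UTP-B joins next. Both of its members here were lower, UTP6 as above and UTP18 at 2312.1 with gefitinib and 3354.5 with DMSO (log2 ratio −0.54). The other UTP-B proteins were read from the list outside the rule and did not share 1 direction, with TBL3 at −1.05, WDR36 at −0.13, PWP2 at 0.02 and WDR3 at 0.50.

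Among the later and peripheral factors, UTP20, a very large scaffold, had 139.2 with gefitinib and 258.1 with DMSO, 1.85-fold lower. NOL6 had 133.6 with gefitinib and 211.8 with DMSO, but 144.7 with gefitinib and 109.0 with DMSO at another probe set, and its readings near the floor thus point both ways. UTP3 had 874.0 with gefitinib and 1292.1 with DMSO, and the helicase DDX10 had 1167.8 with gefitinib and 1693.6 with DMSO. DDX52, a further helicase, had 369.9 with gefitinib and 486.5 with DMSO, and its 3 probe sets were alike at −0.47 to −0.37. BYSL, bystin, had 313.2 with gefitinib and 403.6 with DMSO. At the brightest probe set RRP36, DDX49, NOP9 and NOL10 lay near 0, between −0.11 and 0.13, but other probe sets of the first 3 did not. RRP36 had 1394.6 with gefitinib and 1502.0 with DMSO, and 176.7 with gefitinib and 106.5 with DMSO at its dimmer probe set (log2 ratio 0.73). DDX49, a helicase, had 807.0 with gefitinib and 832.4 with DMSO, and its other probe sets gave 0.32 and, as a bound, −0.55. NOP9 gave −0.42 at its dimmer probe set. NOL7 had 3559.2 with gefitinib and 3230.9 with DMSO (log2 ratio 0.14), and its 2 other measured probe sets gave 0.36 and 0.50. On the higher side were also NOP14 at 0.21, UTP14A at 0.34 and UTP23 at 0.72. UTP23 had 997.3 with gefitinib and 603.5 with DMSO at its brightest probe set and 626.1 with gefitinib and 812.7 with DMSO at another, so its direction depends on the probe set.

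RRP7A and UTP25 each had a probe set that pointed the other way. RRP7A, which like NOL6 belongs to the UTP-C module, had 518.6 with gefitinib and 1004.4 with DMSO, and 450.2 with gefitinib and 844.4 with DMSO at another probe set, 1.94-fold and 1.88-fold lower. A further probe set had 231.9 with gefitinib and 95.2 with DMSO, which is at least 2.32-fold higher because the DMSO signal was under the floor. UTP25 had 355.6 with gefitinib and 428.0 with DMSO at its brightest probe set, while a dimmer one had 250.9 with gefitinib and 60.8 with DMSO, at least 2.51-fold higher. Neither contrary reading is the brightest of its gene.

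The factors of the large subunit had the largest SD between genes of the roles, 0.72, beside 0.84 over all measured genes. Of 17 genes 16 were measured, with a median of −0.34. Below 0 lay 9 (56.25%), beside 43.0% of all measured genes. At least 2-fold lower were 2 (12.5%), beside 6.2%, and at least 2-fold higher were 2 (12.5%), close to the 13.3% of all. NOP16, an assembly factor of large-subunit precursors, had 487.8 with gefitinib and 1034.6 with DMSO, 2.12-fold lower, against 174.2 with gefitinib and 204.8 with DMSO at its dimmer probe set. WDR12, which forms the PeBoW complex with PES1 and BOP1, had 808.2 with gefitinib and 1676.5 with DMSO, 2.07-fold lower. A dimmer probe set of WDR12 had 109.7 with gefitinib and 89.0 with DMSO. PES1 did not follow WDR12, at 1025.3 with gefitinib and 868.5 with DMSO (log2 ratio 0.24).

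NOL8 and RRP1 were the 2 members at least 2-fold higher. NOL8, a nucleolar RNA-binding protein, had 1011.9 with gefitinib and 484.9 with DMSO at its only measured probe set, 2.09-fold higher. RRP1 had 252.1 with gefitinib and 117.2 with DMSO, 2.15-fold higher, with the DMSO signal near the floor. The other probe set of RRP1 had 71.0 with gefitinib and 104.0 with DMSO. RRP1B, its paralogue, had 2619.6 with gefitinib and 1452.7 with DMSO, 1.80-fold higher, but 192.3 with gefitinib and 281.6 with DMSO at a dimmer probe set. NOL8 was thus the only one of these with no contrary reading, and it had no other reading at all.

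The remaining large-subunit factors were within 2-fold. RRP8, a methyltransferase of ribosomal RNA, had 279.0 with gefitinib and 513.2 with DMSO, 1.84-fold lower. The helicases DDX51, DDX54 and DDX56 were alike, at log2 ratios of −0.64, −0.54 and −0.51. RRP15 and NIP7 are pre-ribosomal assembly factors whose probe sets disagreed in direction. RRP15 had 602.5 with gefitinib and 852.3 with DMSO (log2 ratio −0.50), and 231.7 with gefitinib and 209.6 with DMSO at its dimmer probe set. NIP7 had 459.0 with gefitinib and 630.9 with DMSO (log2 ratio −0.46), and 496.8 with gefitinib and 410.1 with DMSO at its other probe set. NOL12 gave −0.23. NOP2, a further methyltransferase, had 414.3 with gefitinib and 400.0 with DMSO, RRS1 had 518.1 with gefitinib and 434.3 with DMSO, and NOL9, a polynucleotide kinase that processes the precursor, had 437.3 with gefitinib and 312.4 with DMSO, with all 3 probe sets between 0.48 and 0.72.

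A few genes match the symbols without a known part in ribosome production. NOL3, an inhibitor of apoptosis, had 2050.0 with gefitinib and 1949.6 with DMSO at its brightest probe set, while 3 others gave log2 ratios of 0.59, 0.48 and −0.36. NOL4L had 195.2 with gefitinib and 128.4 with DMSO. NOP14-AS1, an antisense transcript, had 118.8 with gefitinib and 46.7 with DMSO, at least 1.19-fold higher. At the brightest probe set all 3 lay above 0, and without them the median of the other 58 members was −0.32.

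**Figure D3:**
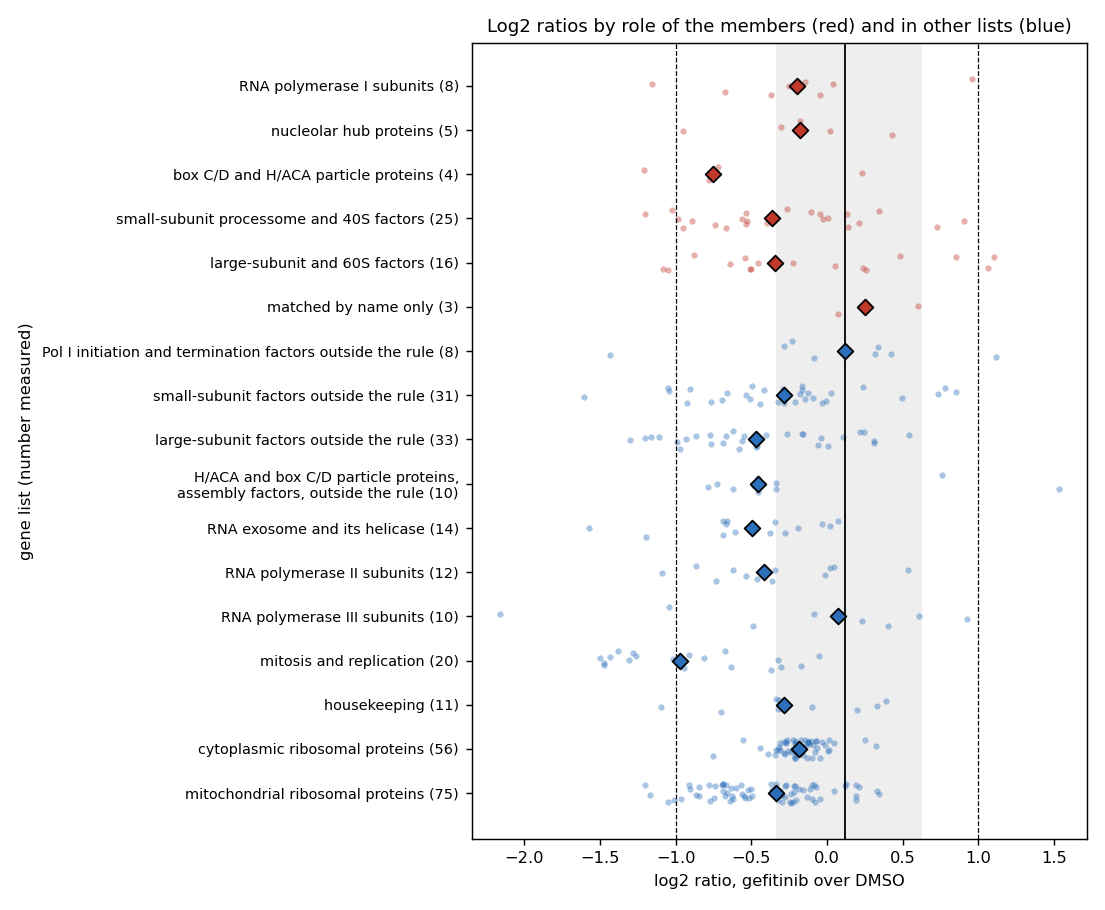
Log2 ratio of gefitinib over DMSO for each measured gene, by role of the members (red) and in lists outside the rule (blue), with the number measured in brackets. Diamonds are medians, the solid line and grey band are the median (0.12) and quartiles of all 11223 measured genes, and dashed lines mark 2-fold. Of the 6 member roles, 5 have medians below 0, and the mitosis and replication list has the lowest median of the lists drawn.

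Counted by probe set, 8 of the 105 measured (7.62%) were at least 2-fold lower, beside 7.26% of all 20172 measured probe sets, and 4 (3.81%) were at least 2-fold higher, beside 12.1%. The share past 2-fold lower is thus close to the background by this count. Below 0 lay 61 of 105 (58.1%), beside 44.9% of all. Where several probe sets were measured, in 29 members, those of 11 (37.9%) lay wholly on one side of 0, beside 60.3% of 5432 such genes. The 11 that did were POLR1C, POLR1H, DDX21, TCOF1, DDX52, UTP4, NOP9, NOL7, DDX54, NOL9 and NOP16, and for them the direction does not depend on which probe set is read.

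Other genes of the same pathway, taken from 5 lists of proteins that the symbols do not reach, were read in the same way. Together they held 96 genes, all measured, with a median of −0.39, and 75 (78.1%) below 0. At least 2-fold lower were 10 (10.4%), beside 6.2% of all measured genes, and at least 2-fold higher were 2 (2.08%), beside 13.3%. Small-subunit factors had a median of −0.29 with 25 of 31 below 0, and large-subunit factors had −0.47 with 26 of 33 below 0. EMG1, a pseudouridine methyltransferase of the small subunit, had 2180.3 with gefitinib and 6641.5 with DMSO, 3.05-fold lower. GRWD1, NOC3L, RPF2 and NOC2L, all of the large subunit, had log2 ratios of −1.30, −1.20, −1.16 and −1.11. The RNA exosome, which trims the precursor, had 12 of 14 genes below 0 and a median of −0.49, and EXOSC3, one of its cap subunits, had 585.7 with gefitinib and 1745.1 with DMSO, 2.98-fold lower. The members and these 96 genes therefore had medians on the same side of 0. Not every list did, as the polymerase I factors among the 96 had a median of 0.12, with 4 of 8 below 0. Transcripts that host small nucleolar RNAs, a list of 5 kept apart from the 96, lay above 0 in the 3 measured. EPB41L4A-AS1, SNHG17 and ZFAS1 had log2 ratios of 0.70, 0.79 and 0.16, and their median was 0.70.

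Neighbouring machineries give the comparison some scale. RNA polymerase II subunits had a median of −0.42 over 12 genes. These include POLR2E, POLR2F, POLR2H, POLR2K and POLR2L, which polymerases I and III also contain, with log2 ratios of −0.36, −0.015, −1.09, −0.73 and −0.87. RNA polymerase III subunits had a median of 0.07 over 10, although POLR3D was 4.48-fold lower, at 205.8 with gefitinib and 921.6 with DMSO. Cytoplasmic ribosomal proteins, the building blocks the members assemble, had a median of −0.18, with 50 of 56 below 0 and none past 2-fold, and mitochondrial ribosomal proteins had −0.34 over 75 genes. Housekeeping genes had −0.28 over 11. Mitosis and replication genes had −0.97, with all 20 below 0 and 9 at least 2-fold lower (45%, beside 6.2% of all measured genes). The shift of the ribosome genes thus came together with a larger one of the cell cycle genes, and whether these are related was not tested.

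The promoters of the members were searched for CACGTG because MYC and MAX bind it. MYC had 2264.7 with gefitinib and 1150.8 with DMSO, 1.97-fold higher, at its only measured probe set. MAX had 3926.3 with gefitinib and 1827.5 with DMSO, 2.15-fold higher, and the log2 ratios of its 5 measured probe sets ran from −0.0014 to 1.57. The search read 300 bases, from 250 before to 50 after each annotated start, in the RefSeq sequences of GRCh38.p14. As the motif is its own reverse complement, 1 search covers both strands, and no other motif was searched. Windows were found for 52 of the 64 members, all but DDX49, DDX52, NOL10, NOLC1, NOP58, POLR1E, POLR1HASP, RRP12, RRP1B, RRS1, TCOF1 and UTP23. Of the genes with a window, 19 of 52 (36.5%) held CACGTG in at least 1 window, beside 2396 of all 27305 genes in the table (8.77%) and 1185 of 9269 measured genes (12.8%). In the lists of pathway genes outside the rule 26 of 90 (28.9%) held it. In 16 of the 19 members the motif lay within 60 bases before to 50 after the start (84.2%), beside 45.6% of the genes with the motif in the whole table and 47.3% of the measured ones.

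The promoter stretches below show the motif in members of 5 roles, and each is the last 60 bases before an annotated start, read 5′ to 3′ on the strand of the gene, with CACGTG in capitals. NOP10 lies at chr15:34343137-34343196 on the minus strand, NOL8 at chr9:92325351-92325410 on the minus strand, POLR1G at chr19:45406584-45406643 on the plus strand, DDX21 at chr10:68956587-68956646 on the plus strand, UTP20 at chr12:101280045-101280104 on the plus strand and UTP4 at chr16:69132589-69132648 on the plus strand. These are the only members with a window that held CACGTG wholly inside those 60 bases. All but NOL8 had log2 ratios below 0.
NOP10: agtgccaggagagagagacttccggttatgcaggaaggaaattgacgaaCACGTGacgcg
NOL8: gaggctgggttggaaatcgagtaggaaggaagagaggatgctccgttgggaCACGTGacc
POLR1G: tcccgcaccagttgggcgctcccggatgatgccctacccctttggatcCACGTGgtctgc
DDX21: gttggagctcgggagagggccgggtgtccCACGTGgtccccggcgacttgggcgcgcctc
UTP20: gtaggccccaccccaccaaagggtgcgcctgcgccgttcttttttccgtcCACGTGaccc
UTP4: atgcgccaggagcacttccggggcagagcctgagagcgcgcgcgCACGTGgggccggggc

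Members with and without the motif had like ratios on these arrays. The median log2 ratio was −0.37 for the 19 members with CACGTG, 12 of them below 0, and −0.37 for the 31 measured members with a window that lacked it, 22 of them below 0. Of the sequences shown, NOP10 (2.31-fold lower), DDX21 (1.94-fold lower) and UTP20 (1.85-fold lower) lay on one side. POLR1G (1.60-fold lower) and UTP4 (1.27-fold lower) lay on that side too, and NOL8 (2.09-fold higher) on the other. Over all measured genes the medians were 0.10 with the motif and 0.11 without it. A match describes the letters in this window and is not a measurement of MYC or MAX binding.

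**Figure D4:**
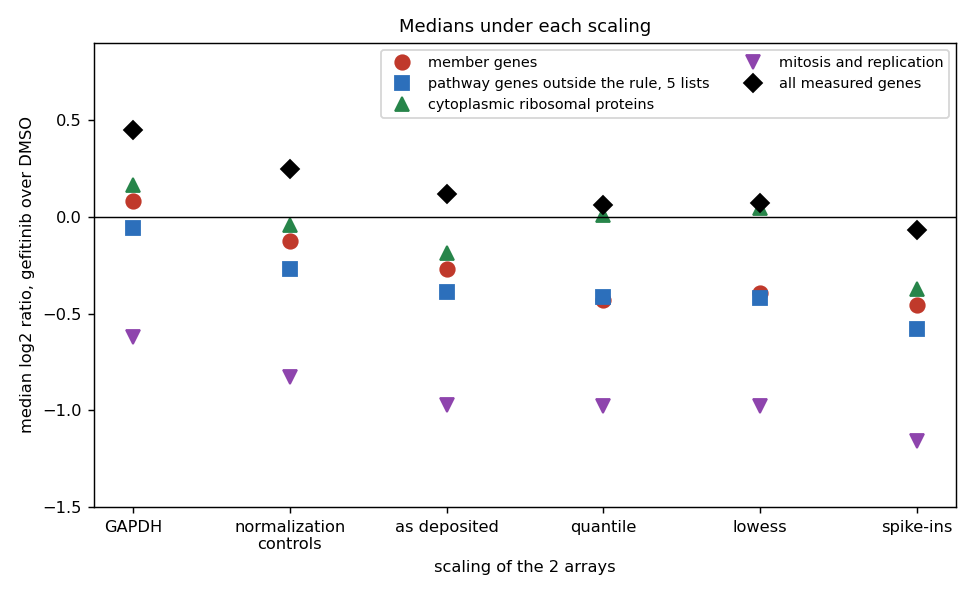
Median log2 ratio of gefitinib over DMSO (vertical axis) for the member genes, the 96 pathway genes outside the rule, cytoplasmic ribosomal proteins, mitosis and replication genes and all measured genes under 6 scalings of the arrays (horizontal axis). The members' median runs from −0.46 (spike-ins) to 0.084 (GAPDH) and lies below that of all measured genes under each.

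The sign of the members' median thus depends on the scale, and turned only under GAPDH with the probe set used. Its place below the median of all measured genes held under quantile normalization and lowess, the scalings drawn that could change it. The medians of the roles also moved with the scale. Scaled to GAPDH, polymerase I subunits had a median of 0.15, the nucleolar proteins 0.18, the small-subunit factors −0.01 and the large-subunit factors 0.01, and the small nucleolar particle proteins −0.40. Cytoplasmic ribosomal proteins turned to 0.17 under GAPDH and 0.01 under quantile normalization. No member past 2-fold changed sign under any scaling. GAPDH, the normalization controls and the spike-ins each shift ratios by less than 2-fold, so they could not turn a ratio past 2-fold. NOP10 ran from −1.40 to −0.86, POLR1H from −1.34 to −0.80, UTP6 from −1.21 to −0.67 and WDR12 from −1.24 to −0.70. NOL8 ran from 0.87 to 1.41 and RRP1 from 0.90 to 1.46. UBTF, outside the rule, ran from 0.93 to 1.47 and was above 0 throughout.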

How the data were processed

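The authors deposited 1 table with the signal intensity of each probe set on each array, on a linear scale, and the submitters' processing notes name MAS5 without a version. This program sets perfect-match against mismatch probes and applies 1 scaling factor per array, so a shift shared by most transcripts is removed or distorted. The platform annotation gave 41097 probe sets 1 gene, 1801 several and 11777 none. Probe sets with several genes, of which 20 list a member symbol, were left out. Current symbols came from GRCh38.p14 gene identifiers (41043 matched).

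Intensities were floored at 100, the log2 ratio was taken at the brightest measured probe set of a gene, and a difference was counted from 2-fold. With 1 array per condition there is no p-value, and precision is limited by the number of arrays. The members, roles and lists were chosen with earlier results of these data known. Every member may be named. Both signals at the brightest probe set are given for members past 2-fold, for bright members of a role and for members whose probe sets disagree. Outside the rule, UBTF, RRN3, MYC and up to 4 genes of a list with the largest ratios are named, and also MAX and the UTP-B proteins, which were chosen after their values were seen.

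Alternatives were quantile normalization, the 100 normalization-control probe sets, GAPDH, spike-ins and lowess (span 0.3) as scalings, floors of 50 and 200, a pseudocount of 50 in place of the floor, no filter, the mean over probe sets, leaving out _x_at probe sets, and a 1.5-fold or 3-fold limit. Leaving out members matched by name only was chosen after seeing the data. Code was checked on simulated arrays. The work used Python 3.11.15, numpy 2.4.6, pandas 2.3.3, statsmodels 0.14.6 and matplotlib 3.10.9.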

Additional observations from a re-analysis of the deposited data

How the results depend on the processing

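The counts of members at least 2-fold higher and lower (2 and 6 on the deposited scale) and their median log2 ratio (−0.27) moved with the scaling and with the limit. Quantile normalization gave 0 higher, 10 lower and a median of −0.43, lowess gave 0, 10 and −0.39, and the spike-ins gave 0, 11 and −0.46. The normalization-control probe sets gave 4 higher, 3 lower and −0.13. Scaling to GAPDH gave 6 higher, 0 lower and a median of 0.084, which turned the sign. That factor came from the GAPDH probe set with the lowest log2 ratio, −0.35. Over all measured genes the share higher and lower was 13.3% and 6.2% as deposited, 10.7% and 7.26% by quantile and 10.8% and 7.19% by lowess. It was 17.0% and 4.71% by the controls, 23.3% and 3.05% by GAPDH and 9.42% and 9.25% by the spike-ins. A floor of 200 left 1 member higher and 5 lower, beside 11.3% and 6.09% of all measured genes. Log2 of the signal plus 50 left 0 and 5, beside 12.7% and 5.87%. The mean over probe sets left 1 and 4, beside 11.0% and 5.60%. It moved the members' median to −0.18 and its difference from all measured genes to −0.28. Without a filter on low values that difference was −0.24, against −0.38 as deposited. At 1.5-fold 7 members were higher and 17 lower, beside 26.4% and 15.0% of all genes, and at 3-fold 0 and 0, beside 4.78% and 2.05%. Of 667 single-gene comparisons with an alternative, 656 differed by less than the spread between probe sets and 11 by more. Scaling to GAPDH, the controls or the spike-ins shifts each ratio by less than that spread and less than 2-fold. Those scalings therefore could not exceed the spread or turn a member past 2-fold. Dropping the filter keeps each measured member at its brightest probe set, and the mean cannot move the 32 members with 1 measured probe set. Other floors and leaving out _x_at probe sets also leave many members unchanged. The 656 of 667 is therefore not a measure of robustness. The sign changed in 34 of the 667 comparisons, over 20 members, and in 0 for members past 2-fold as deposited. Scaling to GAPDH accounted for 11, among them TCOF1 (0.047), POLR1A (0.099), NCL (0.18) and UTP4 (0.01). Among members past 2-fold, RRP1 gave 0.33 and RRP12 −0.39 at a floor of 200, and the mean over probe sets gave −0.66 for NOP16 and −0.46 for WDR12. No paired analysis was possible because each condition has 1 array. Members close to 100, such as RRP12, RRP1, UTP15 and UTP20, have signals near the floor, which limits how large a ratio they can show.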
